A study of Mus musculus with 8 samples.

Results

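The miR-26 pair (mmu-miR-26a-5p and mmu-miR-26b-5p) and the family of miR-148 and miR-152 (mmu-miR-148a-3p, mmu-miR-148b-3p and mmu-miR-152-3p) were followed in mouse callus after femoral osteotomy. The osteotomy was of a kind that heals or of a kind that ends in nonunion, as the paper takes from earlier studies. On day 7 the outcome of a mouse could not yet be seen. The members were taken by the name of the array design, as miR-26a and miR-26b with the 5p arm and miR-148a, miR-148b and miR-152 with the 3p arm. This gave 5 of the 1079 murine miRs on the array. Each group held 4 adult CD-1 mice, with 1 array of callus RNA per mouse, taken 7 days after osteotomy of the right femur under pin and clip fixation. In the Union group (P17 to P20) the gap was 0.25 mm wide. In the Non-union group (P13 to P16) the gap was 1.8 mm wide and the periosteum beside it was stripped, so that gap size and loss of periosteum cannot be told apart. The study used mice of both sexes, and the labels do not give the sex or age of a specimen.

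A miR is loaded as a single strand into an Argonaute protein and guides it to messenger RNAs, mainly by pairing of its seed, the bases 2 to 8 from its 5′ end. MiRs with the same seed share most of their predicted targets. MiR-26a is known from bone biology for effects on osteoblast differentiation and on blood vessel growth, partly through Smad1, a transducer of bone morphogenetic protein signals. Its genes lie within those of the Ctdsp phosphatases, which are themselves targets of miR-26. MiR-148a, miR-148b and miR-152 are known as regulators of DNA methyltransferases, and miR-148a has also been linked to osteoclast formation.

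The mature sequences are shown because they divide the 5 miRs into 2 seed groups and show how few bases separate the members of a group, which matters for the specificity of array probes. All 5 were matched by name in RefSeq (GRCm38.p6). The seed is in capitals and the sequence is written 5′ to 3′.
miR-26a-5p: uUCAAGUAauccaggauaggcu
miR-26b-5p: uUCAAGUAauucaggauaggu
miR-148a-3p: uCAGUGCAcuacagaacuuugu
miR-148b-3p: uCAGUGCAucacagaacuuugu
miR-152-3p: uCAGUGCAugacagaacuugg

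No other mature miR of the RefSeq table carried either seed, so the pair of miR-26 and the 3 miRs of the miR-148 and miR-152 family were complete seed groups on the array. Counted from the 5′ end, miR-26a-5p differed from miR-26b-5p at C11U and C21U, with 19 of the 21 shared positions identical. MiR-148a-3p and miR-148b-3p differed at C9U and U10C and were identical at the other 20 of 22 positions. MiR-152-3p differed from miR-148b-3p at C10G and U20G, and from miR-148a-3p at C9U, U10G and U20G. No base of the seed differed within a group.

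In the same annotation the mature miR-26a-5p is encoded at 2 loci, at chr9:119031811-119031832 (plus strand, Mir26a-1, within the span of Ctdspl) and at chr10:126995543-126995564 (plus strand, Mir26a-2, within the span of Ctdsp2). The array cannot tell which of the loci its signal came from. MiR-26b-5p lies at chr1:74394324-74394344 (plus strand) within the span of Ctdsp1. MiR-148a-3p lies at chr6:51269829-51269850 (minus strand) within the predicted gene Gm38821. MiR-148b-3p lies at chr15:103285185-103285206 (plus strand) within the span of Copz1, and miR-152-3p at chr11:96850439-96850459 (plus strand) within the span of Copz2. Copz1 and Copz2 encode paralogous subunits of the coat of Golgi vesicles. Spans alone do not show whether a miR is intronic or exonic.

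The opposite arms of the 6 precursors, which are usually degraded after processing, were all on the array. None of the 6 (miR-26a-1-3p, miR-26a-2-3p, miR-26b-3p, miR-148a-5p, miR-148b-5p and miR-152-5p) was called detected on any of the 8 arrays. The same held for 657 of the 1079 murine miRs. The signals of the opposite arms therefore gave no information on which miR-26a locus was active. The 3p arms of the miR-26a loci are shown because they would have separated the loci.
miR-26a-1-3p: cCUAUUCUugguuacuugcacg
miR-26a-2-3p: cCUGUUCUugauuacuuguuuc

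All 5 members were detected on all 8 arrays, as were 310 of the 1079 murine miRs. The scanner software merged the background-corrected signal of the 40 spots of a miR into a single value in scanner units. The error it gave for this value was 7.22 to 7.52% of the signal for miR-26a-5p, miR-26b-5p, miR-148a-3p and miR-152-3p, and up to 11.3% for miR-148b-3p, and no spot of the members was saturated. The total signal of an array, added up over the murine miRs, ranged from 183589 (P16) to 279341 units for Non-union and from 227941 to 360063 units for Union. Normalized log2 signals are merged signals after log2 transformation and quantile normalization over all murine miRs. Over the 310 tested miRs, P14 lay nearer the Union mean (root mean square difference 0.48 on the log2 scale) than the mean of the other Non-union arrays (0.53), P19 lay nearer the Non-union mean (0.35 against 0.86), and so did P20 by a smaller margin (0.78 against 0.86). Whether P14 and P19 carry the right group label cannot be told from these data, and every group difference rests on the labels as given. Differences without P14 and P19, a choice made with earlier results known, and without P20 are given beside the main ones. Leaving out arrays that lie nearer the other group tends to widen group differences, so these values are no independent support. Levels of different miRs are not compared, because their probes differ.

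**Figure D1:**
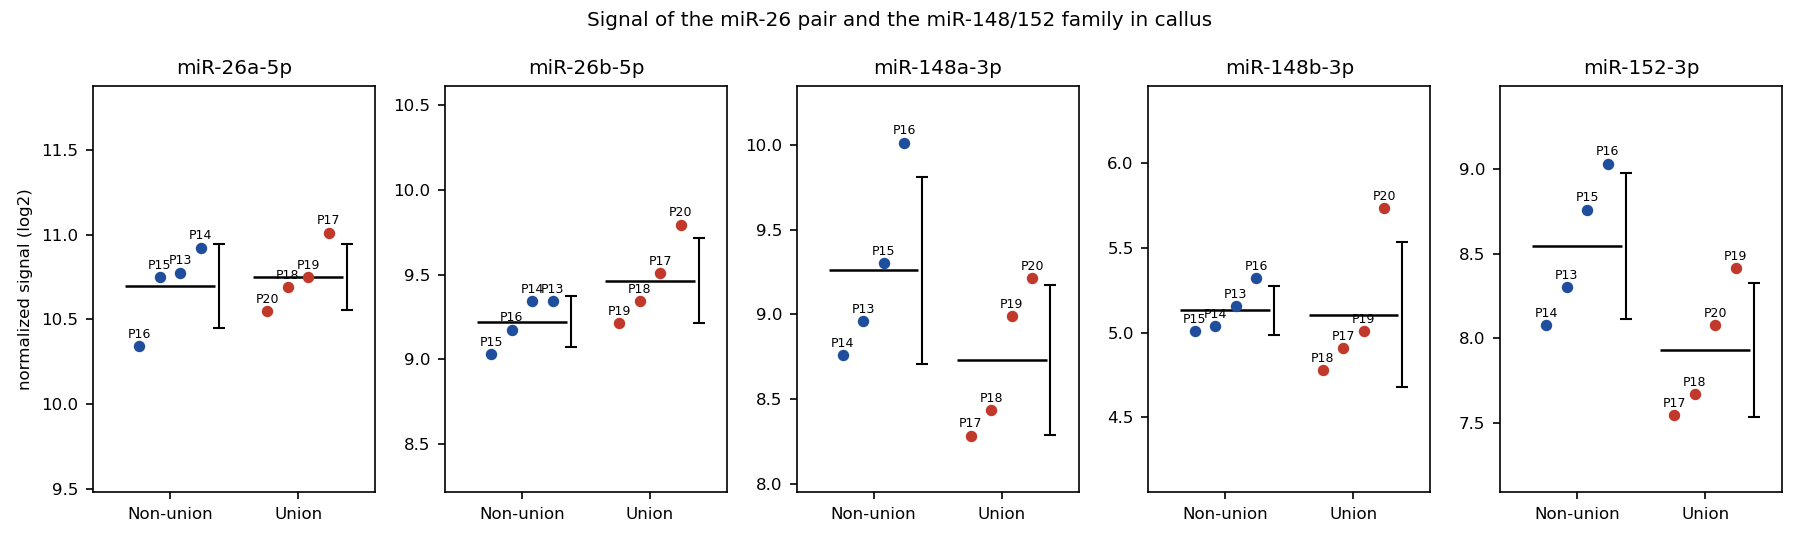
Normalized signal of the 5 miRs on each array (y axis, log2; each panel spans the same number of log2 units), with a point for each mouse, a horizontal line at the group mean and a bar for ± SD (n = 4). The groups overlap for all 5 miRs, and the Non-union mean exceeds the Union mean most for miR-152-3p (8.54 against 7.93) and miR-148a-3p (9.26 against 8.73).

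None of the 5 miRs passed the test between the groups after adjustment over all tested miRs. MiR-152-3p and miR-148a-3p had higher means in the Non-union group, by 0.62 and 0.53 on the log2 scale, but in both the groups overlapped. MiR-148b-3p and miR-26a-5p had nearly equal means, and miR-26b-5p had a slightly lower mean in the Non-union group. At an adjusted limma p under 0.05, 0 of the 5 members were called, where 0.323% of the 310 tested miRs were called. At an unadjusted limma p under 0.05, 0 of the 5 were called, where 13.9% of the tested miRs were called, 9.68% as higher and 4.19% as lower in the Non-union group. With the normexp background correction, miR-152-3p alone of the 5 was called at that level, as were 12.9% of the tested miRs. In 0 of the 5 did the groups not overlap, against 3.87% of the tested miRs. The median log2 difference of the 5 members was 0.02, beside 0.15 for all tested miRs, and 3 of the 5 were higher in the Non-union group, as were 59.4% of the tested miRs. The median of all tested miRs moved with the processing and was 0.03 with quantiles of detected miRs alone. Since callus was measured as bulk tissue, a difference in the number of cells that hold a miR and a difference in its amount per cell cannot be told apart.

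Of the 5, mmu-miR-152-3p had the largest difference. Its normalized log2 signal was 8.30, 8.08, 8.76 and 9.03 on P13 to P16 of the Non-union group. On P17 to P20 of the Union group it was 7.55, 7.67, 8.41 and 8.08. P17 and P18 lay below every Non-union array, P20 shared the value of P14, the lowest of the Non-union group, and P19 lay among the Non-union arrays. The mean was 8.54 ± 0.43 in the Non-union group and 7.93 ± 0.40 in the Union group (SD, n = 4 mice each). The log2 difference was 0.62 (SE 0.28, 95% interval -0.03 to 1.26, limma adjusted p = 0.378), and the two-sided exact permutation test gave p = 0.143. This corresponds to a 1.53-fold higher signal, with an interval from 0.981-fold to 2.39-fold, so that neither equal levels nor a doubling lay outside the interval. Before normalization its merged signal was 318.2, 299.9, 381.8 and 384.3 units in the Non-union group and 258.7, 215.3, 323.3 and 267.6 units in the Union group. On this scale the groups differed by a smaller log2 value, 0.38, but the median of all tested miRs was also lower, at -0.10 in place of 0.15. Without P14 and P19 the difference was 0.94 (SE 0.27, limma adjusted p = 0.068; unadjusted p = 0.011), and the remaining arrays did not overlap. Without P20 the difference was 0.67. Without P14 and P19, however, 39.4% of all tested miRs had an unadjusted p under 0.05, 6.77% had an adjusted p under 0.05 and 41.3% did not overlap. The adjusted p of miR-152-3p ranged from 0.068 to 0.630 over all alternatives.

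The next largest difference and the widest spread were those of mmu-miR-148a-3p. Its normalized log2 signal was 8.96, 8.76, 9.30 and 10.01 on P13 to P16, and 8.28, 8.43, 8.99 and 9.21 on P17 to P20. P16 stood highest of all arrays, P17 and P18 stood lowest, and P19 and P20 lay among the other Non-union arrays. The mean was 9.26 ± 0.55 in the Non-union group and 8.73 ± 0.44 in the Union group (SD, n = 4 mice each). The log2 difference was 0.53 (SE 0.33, 95% interval -0.21 to 1.27, limma adjusted p = 0.386; exact permutation p, two-sided, = 0.200), or 1.44-fold. The merged signal was 578.1, 463.2, 626.5 and 882.6 units in the Non-union group and 403.7, 400.0, 518.8 and 574.3 units in the Union group. P16 thus had the highest signal of miR-148a-3p even before normalization, although the sum of all miRs was lowest on that array. Without P16 the difference fell to 0.27, without P20 it was 0.70, and without P14 and P19 it was 0.78 (limma adjusted p = 0.154).

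In mmu-miR-148b-3p, which has 2 neighbouring bases different from miR-148a-3p, the group means lay close together. Its normalized log2 signal was 5.16, 5.04, 5.01 and 5.32 on P13 to P16, and 4.91, 4.78, 5.01 and 5.73 on P17 to P20. The Union group held both the lowest arrays, P17 and P18, and the highest one, P20, and within the Non-union group P16 was highest. P17 and P18 were also the lowest arrays of miR-148a-3p, and P16 and P20 the highest of their groups. For miR-148b-3p, however, this order of P16, P17 and P18 appeared only after normalization. Its merged signal was 36.9, 34.3, 29.4 and 28.8 units on P13 to P16, and 39.97, 31.8, 31.0 and 48.9 units on P17 to P20. Before normalization P16 was thus the lowest of all arrays, and P17 lay above every array but P20. The means were 5.13 ± 0.14 in the Non-union group and 5.11 ± 0.43 in the Union group (SD, n = 4 mice each), a log2 difference of 0.02 (SE 0.24, 95% interval -0.52 to 0.57, limma adjusted p = 0.949; exact permutation p, two-sided, = 0.971). The interval leaves room for a change of up to 1.48-fold up or to 0.698-fold down. Without P14 and P19 the difference was 0.02 (limma adjusted p = 0.957). Without P20 it was 0.23, and without normalization it was -0.21, so that no direction can be given.

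Each member was represented by a pair of probes with 20 spots each. For miR-26a-5p, miR-26b-5p, miR-148a-3p and miR-152-3p all 20 spots of both probes were well above background on every array, and the merged signal was the sum of both probes on all 8 arrays, within 0.1%. The log2 ratio of the brighter to the dimmer probe ranged only from 0.94 to 1.04 for miR-26a-5p, from 0.78 to 0.87 for miR-26b-5p, from 0.57 to 0.68 for miR-148a-3p and from 0.47 to 0.60 for miR-152-3p. Both probes of these miRs thus followed each other closely from mouse to mouse. Taken alone, the probes gave log2 differences of 0.60 and 0.56 for miR-152-3p and of 0.61 and 0.60 for miR-148a-3p. They gave -0.14 and -0.17 for miR-26a-5p, and -0.09 and -0.02 for miR-26b-5p. For each of these miRs the difference from the merged signal lay outside both single-probe values. It was 0.62 for miR-152-3p, 0.53 for miR-148a-3p, -0.05 for miR-26a-5p and -0.24 for miR-26b-5p. Each probe alone was normalized in place of the merged signal, and the cause of the gap was not tested.

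MiR-148b-3p was different in this respect. Its dimmer probe had signals of 2.57 to 4.87 units, with at most 1 of 20 spots well above background on any array. The brighter probe read 36.9, 34.3, 29.4 and 28.8 units on P13 to P16, and 39.97, 31.8, 31.0 and 44.0 units on P17 to P20. On 7 arrays the merged signal equalled the brighter probe alone. On P20 it was 48.9 units, the sum of both probes. The highest value of miR-148b-3p therefore included a contribution that was left out on the other arrays, although P20 remained highest with the brighter probe alone, at a normalized log2 signal of 5.62 instead of 5.73. The log2 difference from the brighter probe alone was 0.05. The dimmer probe alone gave 1.29, from normalized log2 values of -1.47 to 2.77, and is not read as a level because so few of its spots were above background.

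**Figure D2:**
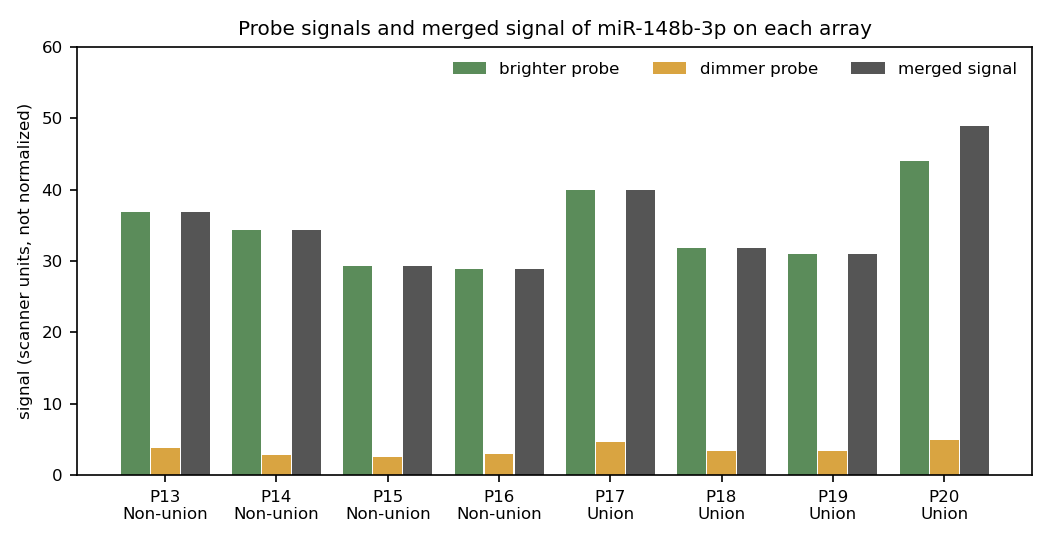
Signal of both probes of miR-148b-3p and its merged signal on each array (y axis, scanner units before normalization; 1 bar for each probe and 1 for the merged signal). The merged bar equals the brighter probe on 7 arrays, but on P20 it reaches 48.9 units against 44.0 units of the brighter probe.

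The level of mmu-miR-26a-5p varied little. Its normalized log2 signal was 10.78, 10.92, 10.75 and 10.34 on P13 to P16, and 11.01, 10.69, 10.75 and 10.55 on P17 to P20. P16 was lowest, P17 was highest, and the remaining arrays of both groups lay between them. The means were 10.70 ± 0.25 in the Non-union group and 10.75 ± 0.19 in the Union group (SD, n = 4 mice each). The log2 difference of -0.05 (SE 0.20, 95% interval -0.51 to 0.40, limma adjusted p = 0.872; exact permutation p, two-sided, = 0.771) was within the spread between mice, and it was 0.06 without P16 and -0.12 without P20. The interval leaves out a change of 2-fold in either direction. The study took miRs with a change of at least this size, or with a significant difference of any size, as relevant. Over all 8 arrays the SD of miR-26a-5p was 0.21, and only 8.71% of the tested miRs had a lower one. The merged signal was 1799, 1955, 1528 and 1215 units in the Non-union group and 2395, 1653, 1632 and 1602 units in the Union group.

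In the miR-26 pair, mmu-miR-26b-5p had the only lower mean of more than 0.1 in the Non-union group. Its normalized log2 signal was 9.34, 9.34, 9.03 and 9.18 on P13 to P16, and 9.51, 9.34, 9.21 and 9.80 on P17 to P20. P17 and P20 lay above every Non-union array, while P18 and P19 lay within the Non-union range. The means were 9.22 ± 0.15 in the Non-union group and 9.47 ± 0.25 in the Union group (SD, n = 4 mice each), with a log2 difference of -0.24 (SE 0.20, 95% interval -0.68 to 0.20, limma adjusted p = 0.428; exact permutation p, two-sided, = 0.171). This interval, too, leaves out a change of 2-fold. When arrays were scaled by the 75th percentile of the detected miRs in place of quantile normalization, the difference was 0.01, and without P20 it was -0.13. Its merged signal was 703.4, 717.3, 580.4 and 487.0 units in the Non-union group and 848.3, 629.6, 585.4 and 823.0 units in the Union group. Without P14 and P19 the difference was -0.38 (limma adjusted p = 0.231), and that of miR-26a-5p was -0.13 (limma adjusted p = 0.674).

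Since the seed partners were measured on the same arrays, their difference within an array is unaffected by scaling an array by a constant factor. It is given here from the merged signals without normalization and without a test. MiR-26a-5p minus miR-26b-5p was 1.35, 1.45, 1.40 and 1.32 on P13 to P16, a range of little more than 0.1 on the log2 scale. On P17 to P20 it was 1.497, 1.39, 1.48 and 0.96. The pair thus kept nearly the same ratio on 7 arrays and departed from it on P20, where miR-26b-5p was high beside miR-26a-5p. The group means were 1.38 ± 0.055 (SD, n = 4) and 1.33 ± 0.25 (SD, n = 4). Quantile normalization widened the range of this difference over all arrays from 0.54 to 0.96, and lowered P16 from 1.32 to 1.17.

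Within the other seed group, miR-152-3p minus miR-148a-3p was -0.86, -0.63, -0.71 and -1.199 on P13 to P16, and -0.64, -0.89, -0.68 and -1.10 on P17 to P20. The group means, -0.85 ± 0.25 and -0.83 ± 0.21 (SD, n = 4 each), differed by 0.02 in size. P16 and P20 were the arrays on which miR-148a-3p was highest relative to miR-152-3p. MiR-152-3p minus miR-148b-3p was 3.11, 3.13, 3.70 and 3.74 on P13 to P16, against 2.69, 2.76, 3.38 and 2.45 on P17 to P20. Here the groups overlapped by P19 alone, and the means were 3.42 ± 0.35 and 2.82 ± 0.40 (SD, n = 4 each). MiR-148a-3p minus miR-148b-3p was 3.97, 3.75, 4.42 and 4.94 on P13 to P16, and 3.34, 3.65, 4.06 and 3.55 on P17 to P20, again with P19 within the Non-union range. The group difference of these 2 contrasts was 0.60 and 0.62, and it was 0.56 and 0.58 when only the brighter probe of miR-148b-3p was used on every array, a choice made after seeing the data. Both contrasts share the signal of miR-148b-3p and are not independent of each other. Without normalization, the group difference of miR-148b-3p itself was -0.21, beside 0.38 for miR-152-3p and 0.41 for miR-148a-3p. Over the 8 arrays, the difference between miR-152-3p and miR-148a-3p ranged over 0.57, against 1.28 and 1.599 for the contrasts of these miRs with miR-148b-3p.

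**Figure D3:**
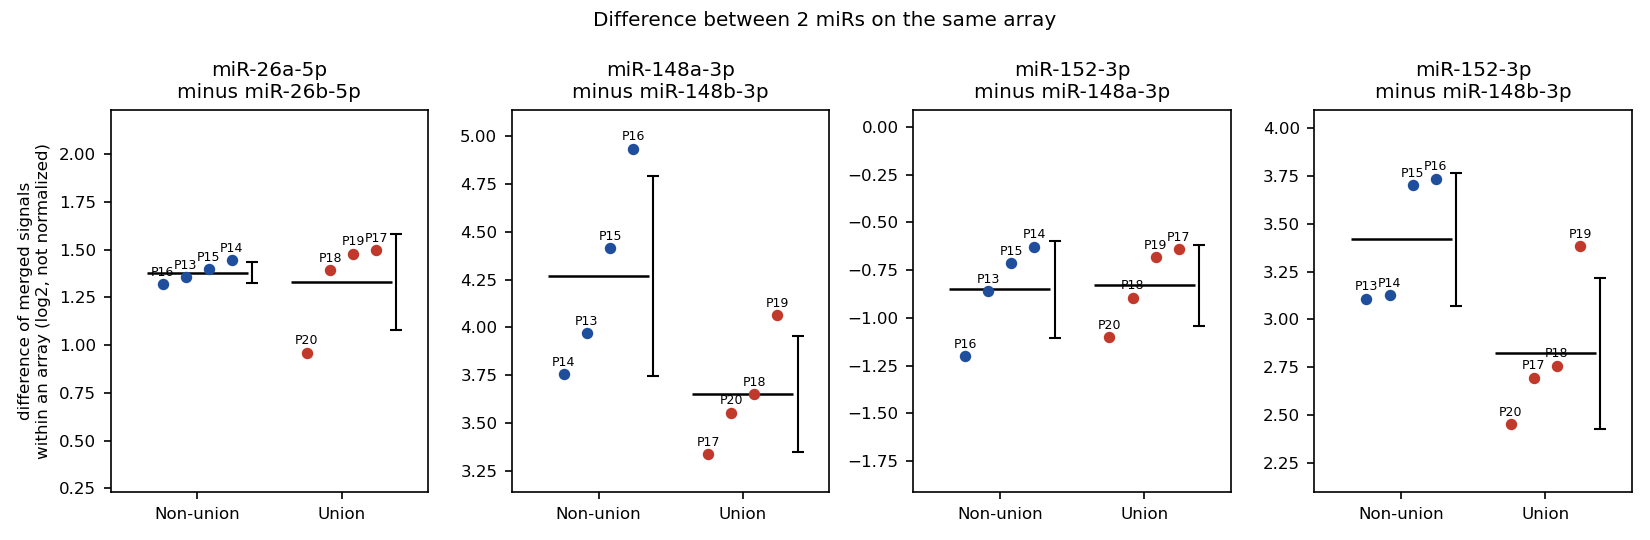
Difference between 2 seed partners on the same array (y axis, log2 of merged signals without normalization; each panel spans the same number of log2 units), with a point for each mouse, a line at the group mean and a bar for ± SD (n = 4). The difference between miR-26a-5p and miR-26b-5p lies between 1.318 and 1.497 on 7 arrays and at 0.96 on P20, and those of miR-148a-3p and miR-152-3p to miR-148b-3p are higher in the Non-union group except for P19.

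The likeness of profiles over the 8 arrays was measured as the root mean square difference of normalized log2 signals after each miR was centred on its own mean, so that a smaller value means a more alike profile. The measure is not scaled by the spread of a miR, so miRs that vary little lie close to each other. No member had a seed partner as its nearest miR. The nearest miRs to miR-152-3p were miR-199b-5p (0.12), miR-125a-5p (0.14) and miR-1839-3p (0.15), and miR-148a-3p ranked 9 with 0.19. The nearest to miR-148a-3p were miR-720 (0.14), miR-152-3p (0.19) and miR-125a-5p (0.21). MiR-148b-3p lay at 0.41 from miR-148a-3p and at 0.46 from miR-152-3p, near the median distance of a tested miR to miR-148b-3p, which was 0.49. Its nearest miRs were miR-425-5p (0.08), miR-361-5p (0.11) and miR-106b-5p (0.12). MiR-26a-5p lay nearest to miR-193-3p (0.11), miR-30e-3p (0.12) and miR-29a-3p (0.12), and miR-26b-5p nearest to miR-30e-5p (0.11), miR-30d-5p (0.13) and miR-1839-5p (0.16). Between miR-26a-5p and miR-26b-5p the difference was 0.28. This ranked 40 among the distances to miR-26a-5p (median 0.50) and 47 among those to miR-26b-5p (median 0.51). All 8 arrays enter these values and share their normalization, so they are a description of these mice.

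Signals of cell types were set beside the members over marker lists, as the sum of normalized signals in scanner units. The cartilage list (both arms of miR-140 and of miR-455), with 4 of 4 miRs detected on every array, summed to 1193, 897.3, 1975 and 3925 units on P13 to P16 and to 466.1, 442.1, 1033 and 738.8 units on P17 to P20. P16 and P15 were the highest arrays and P17 and P18 the lowest for this list, as they were for miR-148a-3p and miR-152-3p. All 4 cartilage miRs were higher in the Non-union group at an unadjusted limma p under 0.05, where 9.68% of all tested miRs were called higher, and 0 of 4 at an adjusted one, where 0.323% were called. The skeletal muscle list (miR-1a, miR-133a, miR-133b and miR-206, all detected on every array) was lowest on P16, with 23692 units against 38864 to 64562 on the other arrays. MiR-1a-3p, miR-133a-3p and miR-133b-3p had lower means in the Non-union group (log2 differences -0.45, -0.52 and -0.15), while miR-206-3p had a higher one (0.44). None of the 4 was called at an unadjusted or an adjusted limma p under 0.05, beside 13.9% and 0.323% of all tested miRs. The list of myeloid cells and leukocytes (miR-223 and miR-142), with 3 of 4 members detected on every array and miR-223-5p on none, summed to 22220 units on P20 and to between 3377 and 6310 units on the other arrays. Of these 3 miRs, 1 was lower in the Non-union group at an unadjusted limma p under 0.05, where 4.19% of all tested miRs were called lower, and none at an adjusted one, where 0.323% were called. After normalization, P20 was also the highest array for miR-26b-5p and miR-148b-3p. Before it, miR-148b-3p was still highest on P20, but miR-26b-5p was higher on P17 (848.3 units) than on P20 (823.0 units). The red blood cell list, with 3 of 3 miRs of the array detected, ranged from 3430 to 10128 units in the Non-union group and from 3014 to 9722 units in the Union group. None of its 3 miRs was called at either level, beside 13.9% and 0.323% of all tested miRs. The part of these cell types in the values of the members was not tested.

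Other miRs that are known for roles in bone, or that act on the same class of targets, were followed as lists. Of the miRs named for bone healing in the study's introduction besides miR-26a, 6 were on the array and 5 were detected on every array. None of the 5 was called at an adjusted or an unadjusted limma p under 0.05, where 0.323% and 13.9% of tested miRs were called. Their median log2 difference was 0.01, beside 0.15 for all tested miRs with the main settings. The differences were 0.01 for miR-92a-3p, an inhibitor of vessel growth, 0.03 for miR-20a-5p, a promoter of osteogenic differentiation, -0.14 for miR-29b-3p, a regulator of collagens, -0.52 for miR-2861, which acts on a histone deacetylase in osteoblasts, and 0.22 for miR-21-5p, which is induced in injured tissue. MiR-138-5p, a brake on osteoblast differentiation, was detected on no array. The miR-29 family, which like miR-148 and miR-152 acts on DNA methyltransferases, had 3 of 3 members tested. None was called at either level, beside the same shares of all tested miRs. The log2 differences were -0.11 for miR-29a-3p, -0.14 for miR-29b-3p and -0.69 for miR-29c-3p (SE 0.34, limma adjusted p = 0.378). Their sign was opposite to that of miR-148a-3p and miR-152-3p, and none of these single miRs passed the test. The family as a set was not tested.

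**Figure D4:**
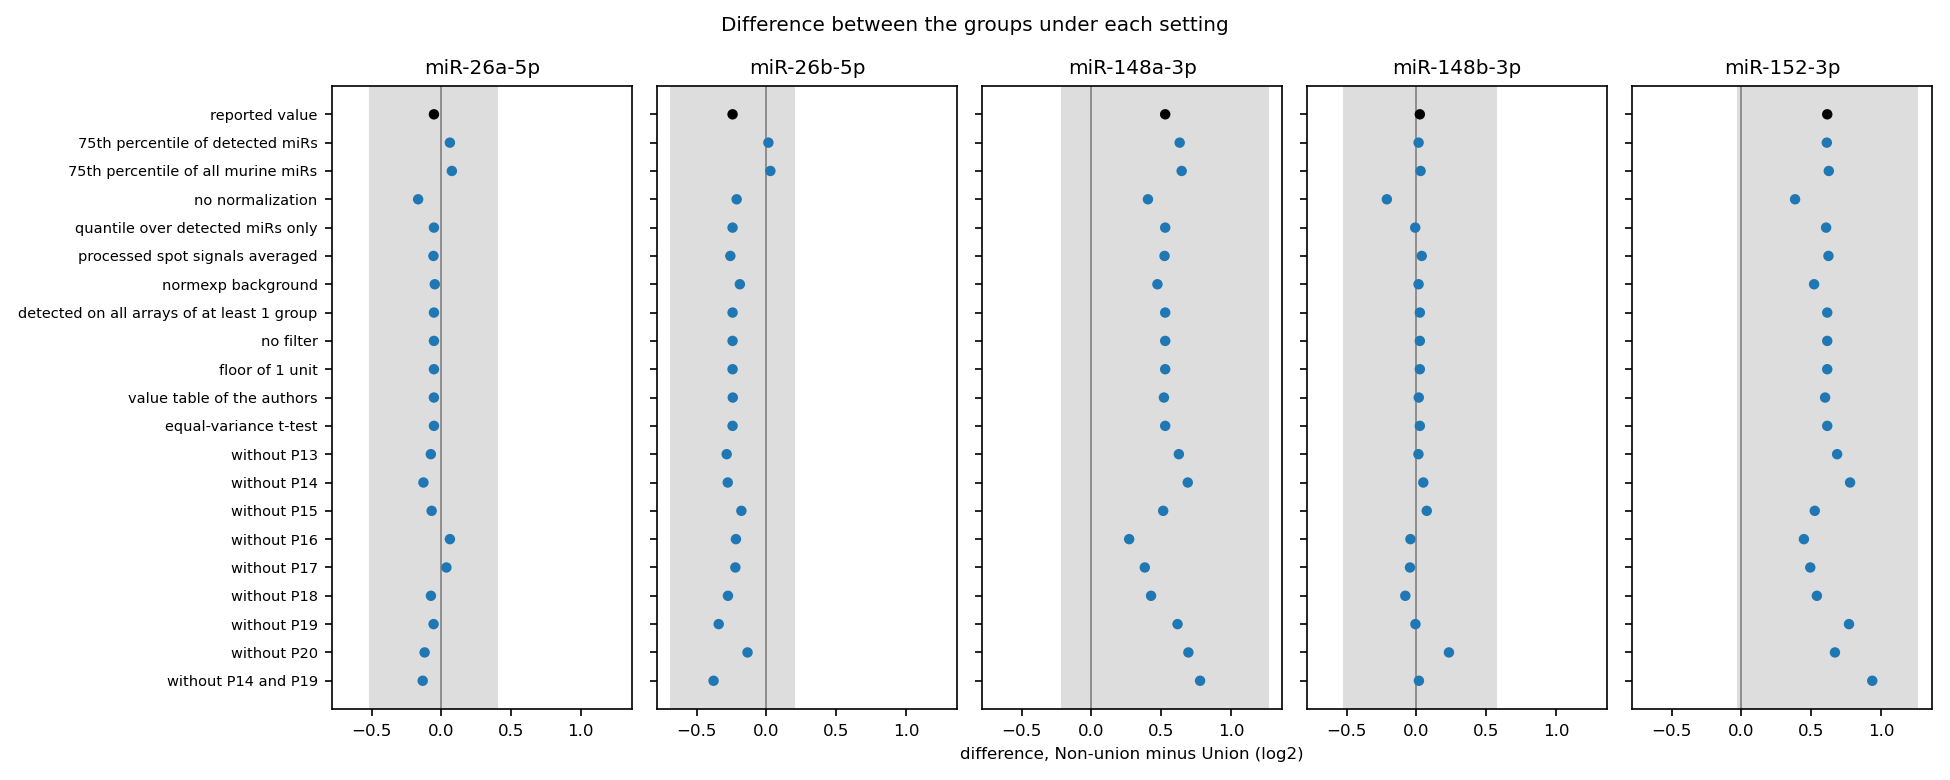
Log2 difference between the groups (x axis, Non-union minus Union) of each miR under each setting of the analysis except single probes (rows). The reported value is in black, the alternatives are in blue, and the 95% interval of the reported value is a grey band. All values of miR-148a-3p (0.27 to 0.78) and miR-152-3p (0.38 to 0.94) lie above 0, while those of miR-26a-5p, miR-26b-5p and miR-148b-3p lie on both sides of 0.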

How the data were processed

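Callus RNA of 8 mice was labelled with Cy3 and hybridized to the 8 arrays of 1 slide. The scanner files that the authors deposited hold intensity values from Agilent Feature Extraction 10.10.1.1, per spot and merged over the 40 spots of a miR (0.1 where undetected), with a detection call. A separate table deposited by the authors holds quantile normalized log2 values and served as an alternative. Groups were taken from the sample labels.

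Quantile normalization was run on the log2 of the merged signals of 1079 murine miRs. Testing covered the 310 with a detection call on all arrays, by lmFit and eBayes (limma 3.58.1, R 4.3.3), two-sided, with Benjamini-Hochberg adjustment over all 310. The code was tested on simulated data. Exact permutation tests of single miRs used the 70 ways to divide the arrays 4 to 4, for which 0.0286 is the lowest possible two-sided p. Tables and figures were made with Python 3.11.15, numpy 2.4.6, pandas 2.3.3, scipy 1.17.1 and matplotlib 3.10.9. The members, the lists and the alternatives were chosen with earlier results of these data known. Named were the members, their opposite arms, the lists, and for each member the 3 miRs with the most alike profile. Alternatives were scaling by the 75th percentile, no normalization, quantiles of the detected miRs, averaged processed or normexp-corrected spots, other filters and floor, the deposited value table, an equal-variance test, single probes and leaving out arrays. The number of arrays limits the precision. Slide row and group coincide and cannot be told apart. Negative control spots read 52.7 ± 1.82 units in the Non-union group and 47.2 ± 0.445 in the Union group (SD, n = 4 each). The array design was annotated on mm9, and coordinates are those of the RefSeq table. Only the array data were used.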

Additional observations from a re-analysis of the deposited data

How the results depend on the processing

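Each difference was recomputed under 22 alternatives, and 0 of the 5 miRs reached an adjusted p under 0.05 in any of them. MiR-148a-3p and miR-152-3p were higher in the Non-union group in all 22. The lowest adjusted p was 0.068, for miR-152-3p without P14 and P19, and its range was 0.068 to 0.630. Its unadjusted limma p was under 0.05 in 6 of the 22, where 40 to 122 of the 310 tested miRs were called. With the main settings 43 were called. Scaling by the 75th percentile of the detected miRs or of all murine miRs turned the difference of miR-26a-5p to 0.061 and 0.075 and that of miR-26b-5p to 0.015 and 0.029. The difference of miR-148b-3p turned to -0.21 without normalization and to -0.01 (-0.0084) when quantiles were equalized over detected miRs alone. When 1 array was left out, the differences ranged from -0.13 to 0.061 for miR-26a-5p, from -0.34 to -0.13 for miR-26b-5p, from 0.27 (without P16) to 0.70 for miR-148a-3p, from -0.079 to 0.23 (without P20) for miR-148b-3p and from 0.45 to 0.78 for miR-152-3p. The cause of these shifts was not tested.

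The median difference of all tested miRs was 0.15, and -0.10 without normalization. It was 0.03 both with quantiles of detected miRs alone and with normexp. Of all tested miRs, 1 had an adjusted p under 0.05. This number was 0 with the 75th percentile of all murine miRs, without normalization, with normexp and with the equal-variance test, 2 with quantiles of detected miRs alone and without a filter, and 3 when full detection in either group sufficed. Leaving out 1 array gave 0 to 12 (without P19), and without P14 and P19 it was 21. At an unadjusted limma p under 0.05 there were 43 miRs, 30 higher and 13 lower in the Non-union group, against 19 higher and 16 lower without normalization and 21 higher and 17 lower with quantiles of detected miRs alone. This number was 18 (without P17) to 115 (without P19) with 1 array left out, and 122 without P14 and P19. No paired analysis was possible because the labels give the groups no shared specimen numbers.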
